A study of Mus musculus with 15 samples.

Results

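The 10 genes described here encode the receptors, exporter and enzymes that sense, release, make and break down sphingosine 1-phosphate (S1P), together with the desaturases that finish its parent lipid, ceramide. They were chosen by name, for their function, after results of these arrays were known, and the mutant and wild-type signals were the values in view. Differences from wild type are therefore given as descriptions with no test. The array carries 18 probe sets for the 10 genes, of 45101 probe sets and 18194 named genes in all, and every one of the 10 genes was measured. A gene is represented by its brightest probe set, and the other probe sets are given beside it.

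The arrays were made from endothelial cells of adult mouse retina, purified acutely on beads with an antibody to PECAM, the adhesion molecule that marks endothelium. Of the 15 pools, 3 lacked the receptor Frizzled4 (Fz4-/-, called Fz4 KO), 3 its coreceptor Lrp5 (Lrp5-/-, called Lrp5 KO) and 3 the ligand Norrin (Norrin KO). The remaining 6 were wild type. Each pool held cells of 5 to 10 animals on a mixed C57Bl6 and 129 background and filled 1 array, and the labels give pools of mixed gender. The labels name no deletion limited to a tissue. All signals are log2 values, so that a difference of 1 is a doubling.

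Norrin is secreted in the retina and binds Frizzled4 with Lrp5 on endothelial cells, which stabilises beta-catenin and supports vessel growth and the blood-retina barrier. S1P is a lipid that blood and endothelial cells release and that vessels read through G protein-coupled receptors, of which S1pr1 tightens endothelial junctions and S1pr3 also couples to contractile signals. Sphingosine kinases make it, Spns2 exports it from endothelium, the phosphatases Sgpp1 and Sgpp2 return it to sphingosine in the endoplasmic reticulum, and the lyase Sgpl1 cleaves it for good. Degs1 and Degs2 turn dihydroceramide into ceramide, and Degs2 can also hydroxylate it to phytoceramide.

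The results turn on the gene pairs Degs1 and Degs2 and Sgpp1 and Sgpp2, of which Degs2 and Sgpp2 stood far below wild type and the others did not, so the 250 bases before the start of each are shown. They come from RefSeq on GRCm38.p6, are written 5′ to 3′ on the strand of the gene, and have in capitals every GC box (GGGCGG) and E-box (CACGTG) on either strand. Degs2 lies at chr12:108702307-108702556 (minus strand), Degs1 at chr1:182282196-182282445 (minus strand), Sgpp2 at chr1:78310096-78310345 (plus strand) and Sgpp1 at chr12:75735730-75735979 (minus strand).
Degs2: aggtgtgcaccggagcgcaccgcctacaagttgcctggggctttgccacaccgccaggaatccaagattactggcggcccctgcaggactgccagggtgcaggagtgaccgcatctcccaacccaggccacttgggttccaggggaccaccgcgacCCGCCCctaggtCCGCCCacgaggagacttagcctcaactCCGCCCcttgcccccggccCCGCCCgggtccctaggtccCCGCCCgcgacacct
Degs1: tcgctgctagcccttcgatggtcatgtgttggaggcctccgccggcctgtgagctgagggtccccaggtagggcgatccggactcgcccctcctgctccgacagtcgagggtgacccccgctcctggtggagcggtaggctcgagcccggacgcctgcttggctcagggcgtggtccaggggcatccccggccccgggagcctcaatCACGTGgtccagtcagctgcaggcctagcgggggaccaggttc
Sgpp2: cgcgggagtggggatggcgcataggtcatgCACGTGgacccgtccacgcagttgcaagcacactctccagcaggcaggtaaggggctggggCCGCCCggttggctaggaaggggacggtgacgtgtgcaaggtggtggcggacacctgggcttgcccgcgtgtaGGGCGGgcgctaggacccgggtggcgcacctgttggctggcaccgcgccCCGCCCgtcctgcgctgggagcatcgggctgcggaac
Sgpp1: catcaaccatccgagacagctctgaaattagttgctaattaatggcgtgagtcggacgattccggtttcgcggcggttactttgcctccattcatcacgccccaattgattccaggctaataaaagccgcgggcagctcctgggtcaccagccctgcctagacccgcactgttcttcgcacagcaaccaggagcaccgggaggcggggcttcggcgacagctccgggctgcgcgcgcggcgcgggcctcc
The windows of Degs2 and Sgpp2 hold 5 and 3 GC boxes, and those of Degs1 and Sgpp1 hold none. The GC content of the 4 windows is 69.2%, 70.8%, 69.6% and 61.2% in the order Degs2, Sgpp2, Degs1 and Sgpp1, against a median of 52.4% over all 32851 promoter entries. A GC box was found in 6 of the 14 entries of the 9 matched genes and in 32.7% of all entries. It was also found in Sgpl1 and S1pr3, which were higher in the mutants, and in Sphk2, which overlapped wild type in each mutant. An E-box was found in 4 of 14 entries (Sgpp2, Degs1 and a pair of overlapping Sphk1 windows) against 6.02% of all. The letters CTTTGAT and CTTTGAA, which T-cell factors and Lef1 of the beta-catenin pathway bind, were in none of the 14 windows and in 3.21% and 4.46% of all entries. AACAAT (Sox factors, 9.42% of all entries) and CCACACCC (Klf factors, 3.20%) were also in none of the 14. TATAAA was in 1 Sphk1 window (12.4% of all). All motifs were searched on both strands, and several Sphk1 entries overlap each other.

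Before the results, the labels and libraries were checked. The Fzd4 signal was 3.98 to 4.56 in Fz4 KO against 11.80 to 12.27 in wild type, and Lrp5 was 4.40 to 5.25 in Lrp5 KO against 7.22 to 7.95. Ndp, the Norrin gene, was 3.88 to 4.96 on all arrays, in the lower part of the signals, and checks nothing. The mean of 10 endothelial markers was 11.75 to 12.04 on every array, with Pecam1 at 10.91 to 11.94 (3 of 10 markers higher and 4 lower over the mean of the mutants by the limma fit of all genes). In that fit 14.0% of all genes were higher and 9.91% lower, the shares to set beside the count of each list. The mean of 10 macrophage markers was 8.08 to 9.52 in wild type and 9.26 to 10.27 in the mutants, with 5 of 10 higher and none lower. For 10 pericyte and smooth muscle markers it was 10.59 to 10.94 and 10.67 to 11.18 (3 higher, 1 lower), for 9 rod and cone markers 5.42 to 6.01 and 5.29 to 7.26 (1 higher), and for 8 glial markers 10.35 to 11.22 and 10.51 to 11.40 (1 higher, 2 lower). Retinal neuron markers (7 genes) were at 6.28 to 7.19 and 7.08 to 8.07, pigment epithelium markers (6) at 6.11 to 7.48 and 5.76 to 7.36, platelet markers (4) at 6.01 to 6.71 and 6.26 to 7.29, each with 1 higher. Red blood cell markers (3) were at 4.56 to 5.14 and 3.47 to 4.66 with 1 lower, and lymphocyte markers (5) at 5.13 to 5.80 and 4.92 to 5.57 with none called. Signals of the X-linked Xist were 4.12 to 4.98 and of the Y-linked Eif2s3y 9.77 to 10.32 in all 3 Norrin KO pools. In Fz4 KO Xist was 11.42 to 11.88, while Eif2s3y was 9.566, 9.625 and 3.253 on Fz4 KO 1 to 3. Wild type 1 and 2 also had both signals high, and wild type 3 had Xist alone. Lrp5 KO 1 to 3 read Xist at 5.899, 4.758 and 12.207, beside 5.989, 4.878 and 12.269 on wild type 4 to 6. Several pools thus had only 1 of the signals high, although the labels give mixed gender. The gap between the 3′ and 5′ actin controls, a sign of RNA length, was 1.05 to 2.92 in Norrin KO, highest on Norrin KO 1, and 0.56 to 1.04 elsewhere. The part of these differences in the results below was not tested. In such bulk samples fewer cells of a type and less RNA per cell cannot be told apart.

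The largest differences among the 10 genes were the low signals of Degs2 and Sgpp2 in every mutant. Degs2, the desaturase and hydroxylase of ceramide, read 5.42, 5.67 and 5.24 in Fz4 KO. The Lrp5 KO pools read 6.16, 7.69 and 7.22, and the Norrin KO pools 4.78, 5.81 and 6.25. The 6 wild-type pools read 10.05 to 10.67 with a median of 10.54. All 9 mutant pools lay far below all 6 wild-type pools, and Lrp5 KO had the highest mean of the mutants. The difference from wild type was −5.03 ± 0.32 (SE of the fit, 3 against 6 arrays) in Fz4 KO. It was −3.45 ± 0.32 for Lrp5 KO and −4.86 ± 0.32 in Norrin KO; Fz4 KO was 32.7 times and Norrin KO 29.1 times lower. The lower quartile of an array lay at 3.90 to 4.29 and its median at 5.89 to 6.04, so that most mutant signals of Degs2 were near or below the middle of the array, where background limits the size of a difference.

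Sgpp2, the phosphatase of S1P that is induced by inflammation in endothelium, followed closely. It read 6.10, 6.30 and 5.53 in Fz4 KO. The Lrp5 KO pools read 6.02, 8.23 and 7.63, the Norrin KO pools 5.24, 5.90 and 7.72, and the wild-type pools 10.23 to 10.82 with a median of 10.69. Again the groups did not overlap, and the spread in Lrp5 KO and Norrin KO (SD 1.14 and 1.29, n = 3) was wider than in wild type (0.22, n = 6). The differences from wild type were −4.64, −3.33 and −4.33 (SE 0.49 each) in the order Fz4, Lrp5 and Norrin KO. As for Degs2, several mutant signals were near or below the middle of the array, where background limits the size of a difference. Each of these genes had a single probe set, so no other probe set bears on them.

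The other gene of each pair differed from this. Degs1, the main dihydroceramide desaturase, read 11.02, 11.03 and 10.91 in Fz4 KO. For Degs1 the signals were 10.70, 10.59 and 10.72 in Lrp5 KO, 11.41, 11.05 and 11.21 in Norrin KO and 9.83 to 10.15 (median 10.04) in wild type. Every mutant pool was above every wild-type pool, and the 4 groups did not overlap with their neighbours in the order Norrin KO, Fz4 KO, Lrp5 KO, wild type. The differences were +0.97, +0.65 and +1.21 (SE 0.11 each) in Fz4, Lrp5 and Norrin KO, and +1.46, +1.05 and +1.60 (SE 0.15) on its second probe set. There every mutant pool was again above wild type, but Fz4 KO (10.61 to 10.75) and Norrin KO (10.70 to 10.96) overlapped.

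Sgpp1, the widely expressed S1P phosphatase, lay within the wild-type range or close to it. It read 9.55, 9.65 and 9.59 in Fz4 KO. For Sgpp1 the signals were 9.32, 9.70 and 9.73 in Lrp5 KO, 9.52, 9.37 and 9.26 in Norrin KO and 9.36 to 9.76 (median 9.59) in wild type, so that every mutant group overlapped wild type. The differences were +0.01, −0.01 and −0.21 (SE 0.13). Its other 2 probe sets stood at +0.07 and −0.13 in Norrin KO and between +0.16 and +0.30 in Fz4 and Lrp5 KO, with overlap in each.

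**Figure D1:**
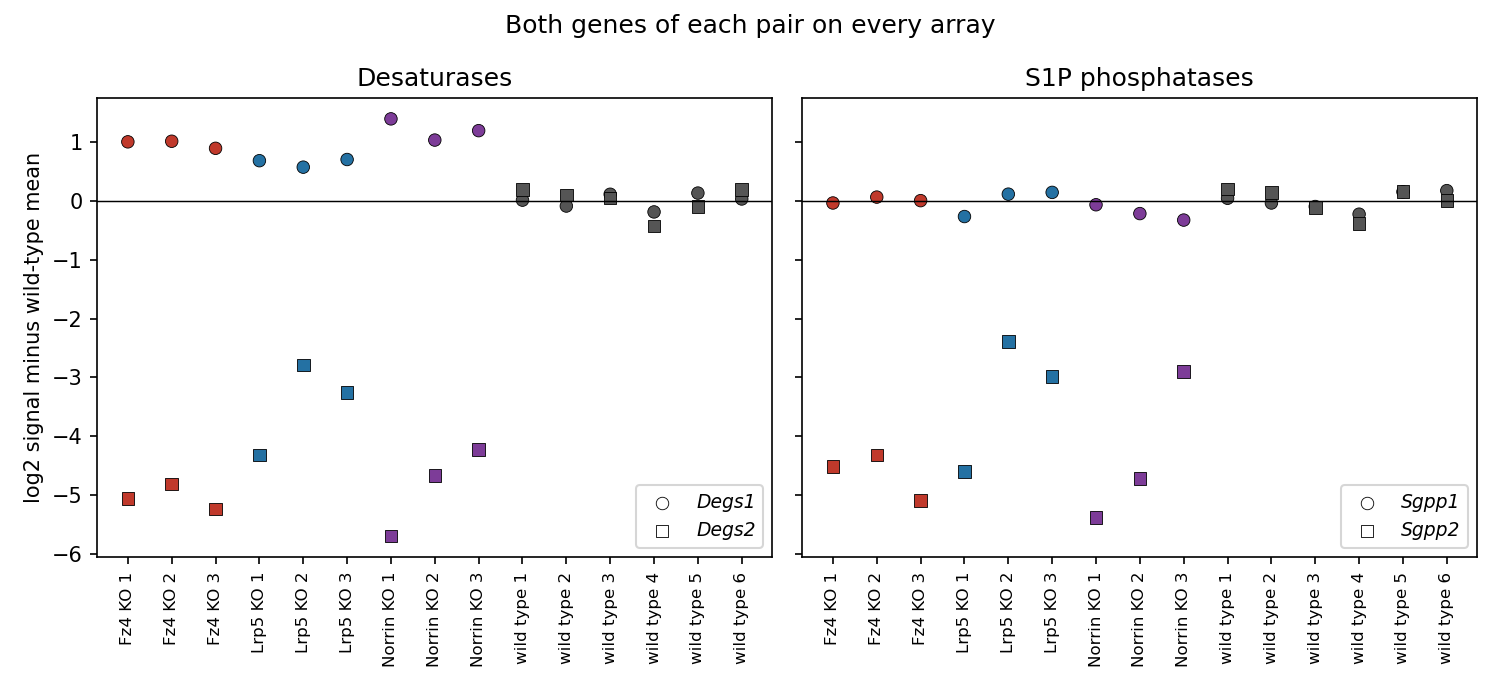
Log2 signal of Degs1 and Degs2 (left) and Sgpp1 and Sgpp2 (right) on each of the 15 arrays, minus the wild-type mean of that gene; circles are Degs1 and Sgpp1, squares Degs2 and Sgpp2, colours the groups. Squares of all 9 mutant arrays lie far below 0, circles of Degs1 lie above 0 on all 9, and circles of Sgpp1 lie around 0.

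The lyase Sgpl1, which removes S1P irreversibly, was higher in the mutants with some overlap. Its signals were 9.54, 9.62 and 9.91 in Fz4 KO. For Sgpl1 the signals were 9.37, 9.35 and 9.19 in Lrp5 KO, 9.04, 9.09 and 8.91 in Norrin KO and 7.41 to 9.04 (median 8.38) in wild type. The Fz4 and Lrp5 KO pools lay above all wild-type pools, whereas Norrin KO overlapped with wild type 3, the highest of its group. The differences were +1.34, +0.95 and +0.66 (SE 0.25), and +0.73, +0.76 and +0.35 (SE 0.31) on a dimmer probe set whose groups overlapped.

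Spns2, the exporter through which endothelium releases S1P, was higher in all mutants. It read 9.65, 9.56 and 9.65 in Fz4 KO. For Spns2 the signals were 9.75, 10.09 and 9.51 in Lrp5 KO, 10.32, 9.91 and 10.16 in Norrin KO and 7.99 to 9.20 (median 8.73) in wild type. No mutant pool overlapped with wild type, and neighbouring mutants overlapped with each other. The differences were +1.01, +1.17 and +1.52 (SE 0.24), and over the mean of the mutants +1.23 ± 0.18, or 2.35 times the wild-type signal.

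The sphingosine kinases, which make S1P, did not separate the mutants from wild type. Sphk1 read 7.58, 7.35 and 8.12 in Fz4 KO. For Sphk1 the signals were 7.40, 7.99 and 8.15 in Lrp5 KO, 7.26, 7.29 and 7.85 in Norrin KO and 6.49 to 8.88 (median 7.38) in wild type, whose spread (SD 0.81) exceeded every difference. A second Sphk1 probe set stood at +1.29, +0.97 and +0.32 (SE 0.44), with overlap in each mutant. Fz4 and Lrp5 KO overlapped with wild type 3 alone, at 8.19 the highest of all 15 pools, and Norrin KO 3 at 6.29 also lay below wild type 5 and 6, at 6.32 and 6.59. Sphk2 was at +0.15 and −0.09 in Fz4 and Lrp5 KO (SE 0.32). In Norrin KO it read 9.31, 9.38 and 9.54, at +0.94, above 5 of 6 wild-type pools and overlapping with wild type 1 at 9.46. Its other probe set was at +0.49, +0.17 and +0.60 (SE 0.29) with overlap in all groups.

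S1pr3, the receptor that pericytes and smooth muscle share with endothelium, was higher in the mutants. Its brightest probe set read 12.41, 12.38 and 12.47 in Fz4 KO. For S1pr3 the signals were 12.01, 12.48 and 12.36 in Lrp5 KO, 12.24, 12.13 and 12.19 in Norrin KO and 10.94 to 11.87 (median 11.28) in wild type, with no overlap. The differences were +1.10, +0.97 and +0.87 (SE 0.18), and the second probe set gave +1.13, +1.01 and +1.03 (SE 0.17). The remaining, dim one was at +1.46, +1.09 and −0.23 (SE 0.41), and its lowest value, 4.33, was on Norrin KO 1, the array with the widest actin gap. Pericyte and smooth muscle markers (3 of 10 higher, 1 lower) had a mean of 10.59 to 10.94 in wild type, 10.99 to 11.13 in Fz4 KO, 10.67 to 11.18 in Lrp5 KO and 10.80 to 10.95 in Norrin KO. Pdgfrb was 11.45 to 11.84 in wild type, 11.88 to 12.21 in Fz4 KO, 11.99 to 12.36 in Lrp5 KO and 10.89 to 12.32 in Norrin KO. Rgs5 was 13.33 to 13.44 in wild type. In Fz4 KO it was 13.58 to 13.81, in Lrp5 KO 13.54 to 13.64 and in Norrin KO 12.97 to 13.38. Acta2 was 12.61 to 13.04 in wild type, and every mutant overlapped with it. Its signal was 12.65 to 12.87 in Fz4 KO, 12.25 to 12.98 in Lrp5 KO and 12.80 to 12.95 in Norrin KO. The part of these cells in the S1pr3 difference was not tested.

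S1pr1, the main S1P receptor of endothelium, differed from wild type in the Norrin KO pools. It read 10.17, 10.31 and 10.43 in Fz4 KO. For S1pr1 the signals were 10.68, 10.07 and 10.17 in Lrp5 KO, 9.17, 9.69 and 9.58 in Norrin KO and 9.80 to 10.31 (median 10.22) in wild type. All Norrin KO pools lay below all other pools, and the remaining groups overlapped. The differences from wild type were +0.17, +0.17 and −0.66 (SE 0.17).

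Counted over the 9 mutant pools, 3 of the 10 genes (S1pr3, Spns2 and Degs1) were above all 6 wild-type pools and 2 (Degs2 and Sgpp2) below all of them, while 5 overlapped. Of all genes 4.76% were above and 3.53% below in the same sense. These counts describe genes chosen with the values in view, and nothing is read from them.

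**Figure D2:**
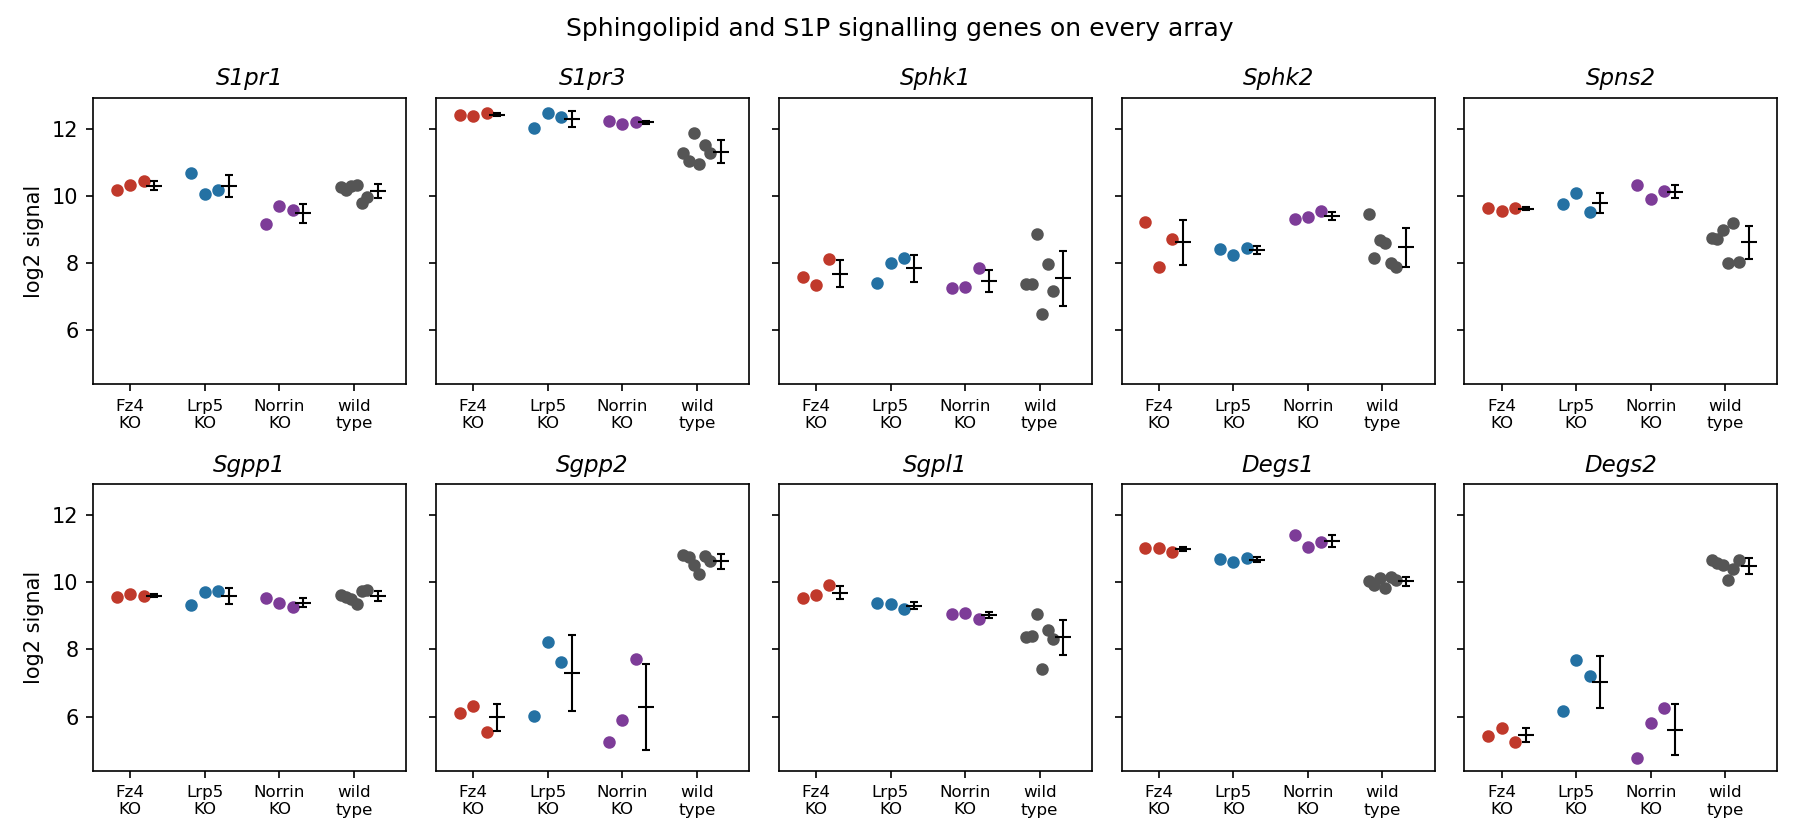
Log2 signal of the brightest probe set of each of the 10 genes on every array, by group; bars give the mean and SD of the group (3 arrays per mutant, 6 wild type). Degs2 and Sgpp2 stand apart from wild type by the widest margin, at 4.78 to 7.69 and 5.24 to 8.23 in the mutants.

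**Figure D3:**
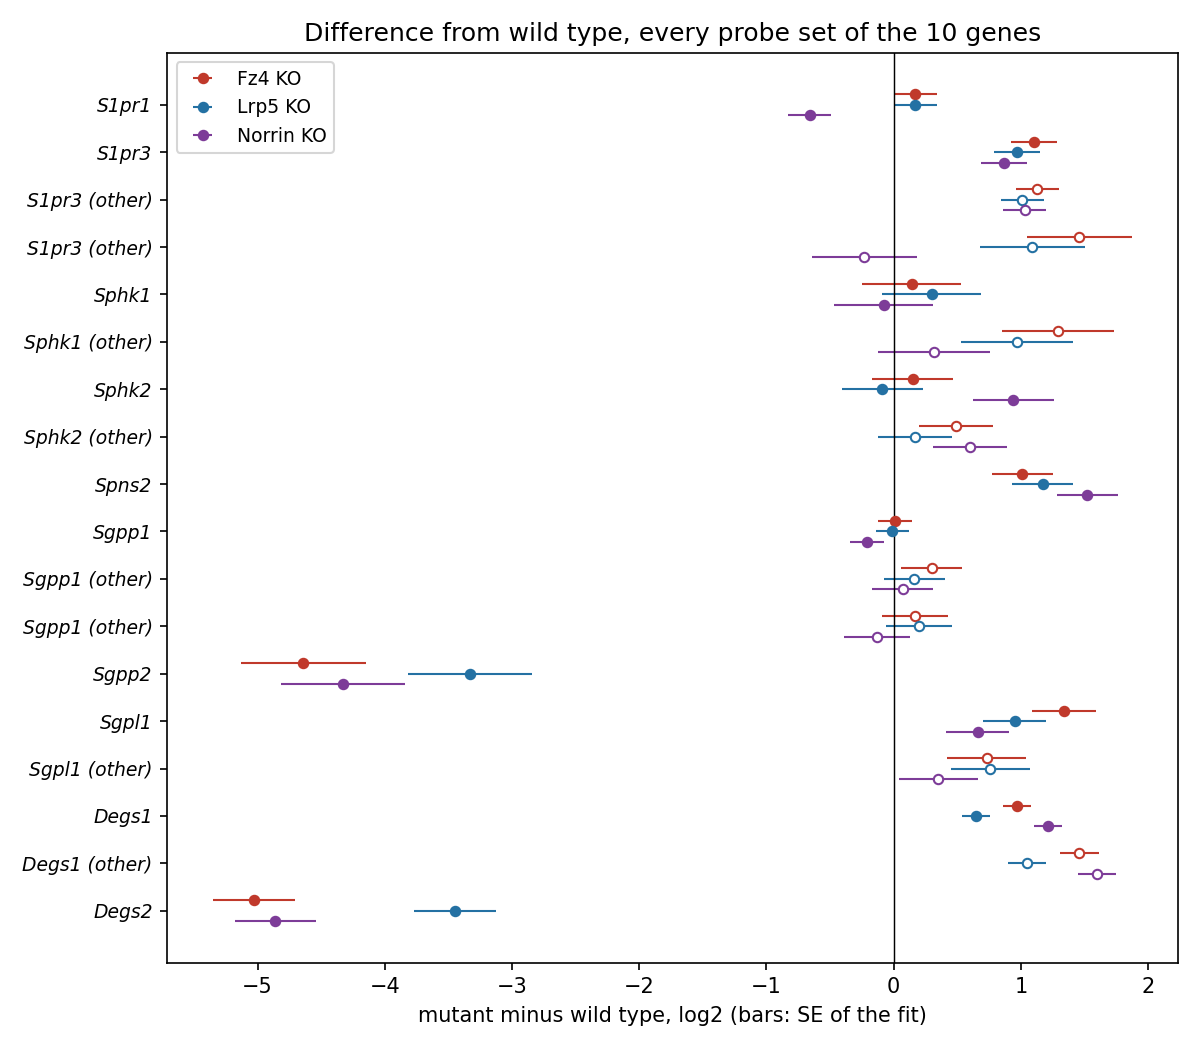
Difference of each mutant from wild type (log2, bars are the SE of the fit) for all 18 probe sets; filled points are the probe set that stands for the gene, open points the others. Probe sets of Degs1 and Sgpl1 lie right of 0 in all mutants, as do the brighter 2 of S1pr3, and those of Degs2 and Sgpp2 lie below −3.

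The genes with the pattern most like that of Degs2 were sought over the 15 arrays, each gene centred on its wild-type mean, as the root mean square difference from Degs2. The nearest of all other genes was Sgpp2 itself (0.436), followed by Cutal (0.532), Pllp, plasmolipin (0.623), and Ocln, the occludin of tight junctions (0.638). Degs2 and Sgpp2 were both chosen with the mutant and wild-type signals in view, so the place of Sgpp2 is a description and nothing is read from it. Their differences from wild type in Fz4, Lrp5 and Norrin KO were −4.46, −3.75 and −3.97 for Cutal, −4.10, −3.88 and −4.46 for Pllp and −4.22, −3.11 and −3.97 for Ocln. For Spns2, the gene with the largest positive difference, the nearest were Mtcl1 (0.222), B4galt3 (0.234), Iffo2 (0.255) and Soga1 (0.258), at +0.90 to +1.62 in the 3 mutants. Degs1 stood at rank 131 of that order (0.388), S1pr3 at rank 158 (0.400) and Sgpl1 at rank 419 (0.491). The other members stood far down, Sphk2 at rank 4314, Sphk1 at 6657, Sgpp1 at 9524, S1pr1 at 13048, Sgpp2 at 18177 and Degs2 at 18182. These ranks too rest on values in view when the genes were chosen.

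Differences between the mutants were tested with limma over all genes. The 10 genes were chosen with the mutant signals in view, so these tests are not independent of the choice. Between Norrin KO and Lrp5 KO, 3 of the 10 genes passed at an adjusted p of 0.05 (11.9% of all genes did), between Fz4 KO and Norrin KO 1 (2.32% of all), and between Fz4 KO and Lrp5 KO none, with 3 at an unadjusted p under 0.05 (0.225% of all passed the adjusted one). Degs1 was higher in Norrin KO than in Lrp5 KO by 0.55 ± 0.13 (limma adjusted p = 0.0181), with all 3 pools above all 3. Degs2 was at −1.41 ± 0.37 in Norrin KO against Lrp5 KO (limma adjusted p = 0.0276), although Norrin KO 3 at 6.25 and Lrp5 KO 1 at 6.16 overlapped. It was also at −1.58 ± 0.37 in Fz4 KO against Lrp5 KO with no overlap, which did not pass (limma adjusted p = 0.162), but passed without Lrp5 KO 1 (adjusted p = 0.0389). Sphk2 was at 1.03 ± 0.37 in Norrin KO against Lrp5 KO with no overlap (limma adjusted p = 0.0814) and passed without wild type 1 (0.0429), and Sgpp2 did not pass there (0.249) but did without Norrin KO 3, at −1.72 (0.0476). S1pr1 was at −0.83 ± 0.20 in Norrin KO against Lrp5 KO (adjusted p = 0.0175) and higher in Fz4 KO than in Norrin KO by 0.83 ± 0.20 (adjusted p = 0.0445).

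These 4 calls did not pass under several settings, most often with differences of similar size. Without Norrin KO 1, the array with the widest actin gap, Degs1 was at 0.46 (limma adjusted p = 0.0596), Degs2 at −0.99 (0.105) and S1pr1 at −0.68 against Lrp5 KO (0.0673) and at 0.67 for Fz4 KO against Norrin KO (0.156), with 2 Norrin KO pools left. With the gap as a covariate Degs1 was at 0.40 (0.187), S1pr1 at −0.61 (0.197) and 0.58 (0.442), and Degs2 at −0.67 (0.367), which is the widest move of the 4. With only the compared groups in the fit the differences were the same by construction, and none of the 4 passed (0.13 for Degs1, 0.154 for Degs2, 0.112 and 0.128 for S1pr1). Sphk2, not called in the fit of all arrays, passed there between Norrin KO and Lrp5 KO (0.0469). Without Lrp5 KO 1 the calls against Lrp5 KO did not pass for Degs1 (0.57, adjusted p = 0.0536) and S1pr1 (−0.64, 0.0844), and the Degs2 call did not without Lrp5 KO 2 (−1.08, 0.0728) or Lrp5 KO 3 (−1.31, 0.0901). The S1pr1 call of Fz4 KO against Norrin KO did not pass without any 1 of 10 arrays, at 0.67 to 0.89 (0.0503 to 0.156). These were all Fz4 KO arrays, Lrp5 KO 3, Norrin KO 1 and 3 and wild type 1, 2, 3 and 6.

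The rest of the pathway was followed in 80 further genes of sphingolipid metabolism and S1P signalling, of which 72 were measured on probe sets of a single symbol. They too were listed with earlier results of these data known, so their p-values below may not be independent of the choice. Over the mean of the mutants 18 rose and 11 fell by the limma fit (14.0% and 9.91% of all genes did), with a median of +0.06 beside −0.01 for all genes. In Fz4 KO 13 rose and 7 fell (10.7% and 6.08% of all genes did), in Lrp5 KO 8 and 9 (5.63% and 7.27% of all; 5 fell without Lrp5 KO 1), and in Norrin KO 19 and 6 (16.7% and 9.13% of all). With the actin gap as a covariate 11 rose in Norrin KO, and without Lrp5 KO 1, Lrp5 KO 3 and wild type 4 3 rose and 3 fell in Lrp5 KO, of which 1 array was then left.

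The strongest falls were in the synthesis of sphingomyelin, where ceramide receives its phosphocholine head. Sgms2, the synthase of the plasma membrane, was 10.60 ± 0.31 (SD, n = 6) in wild type and 8.17 ± 0.57 (SD, n = 9) in the mutants. It fell by 2.43 on the log2 scale (SE 0.24, limma adjusted p = 3.86e-06), with mutant pools at 7.61 to 9.49 and wild type at 10.33 to 11.17. Sgms1, the Golgi synthase, fell by 1.20 (SE 0.09, limma adjusted p = 2.56e-07), with wild type at 12.26 to 12.58 and the mutants at 10.95 to 11.46. Both fell in each mutant. Cert1, which carries ceramide to the Golgi for this step, fell by 0.64 (SE 0.08, limma adjusted p = 2.55e-05). Of 7 sphingomyelin genes 3 fell and none rose (9.91% and 14.0% of all genes did), the other being Smpd2, a neutral sphingomyelinase, at −0.49.

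The strongest rises were in 2 lipid phosphate phosphatases, membrane enzymes that remove the phosphate of S1P and of lysophosphatidic acid outside the cell. Plpp3 rose by 2.05 (SE 0.13, limma adjusted p = 3e-08), with wild type at 10.32 to 11.28 and the mutants at 12.46 to 12.90. Plpp1 rose by 1.38 (SE 0.08, limma adjusted p = 1.66e-08), with wild type at 11.11 to 11.47 and the mutants at 12.59 to 12.85. Both rose in each mutant with no overlap, at +1.90 to +2.20 for Plpp3 and +1.33 to +1.44 for Plpp1. Of the 6 genes for carriers, transport and breakdown these 2 rose and none fell (14.0% and 9.91% of all genes did). Plpp2, of the same enzyme family, was at +0.08 (SE 0.15) and did not pass (limma adjusted p = 0.773).

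Genes of glycosphingolipids, which carry sugars on ceramide, included 9 that rose and 1 that fell, of 16 measured (14.0% and 9.91% of all genes did). Ugcg, which adds the first glucose, rose by 1.03 (adjusted p = 0.000324) with overlap in Norrin KO, and B4galt6, the lactosylceramide synthase, rose by 0.71 (SE 0.10, limma adjusted p = 0.000132) with no overlap. The other genes of the group that rose were St8sia1, B4galnt1, Arsa, Hexa, Gba2, St3gal5 and Gla, at +0.37 to +1.12, and they include both synthetic and lysosomal enzymes. Galc, the lysosomal galactosylceramidase, fell over the mean of the mutants (−1.13), which rested on Lrp5 KO. Its signal was 3.43 to 5.58 there and 7.58 to 8.89 in Fz4 and Norrin KO, against 7.87 to 8.75 in wild type. Macrophage markers were also higher in the mutants, with the mean of the list at 8.08 to 9.52 in wild type, 9.71 to 10.27 in Fz4 KO, 9.26 to 9.92 in Lrp5 KO and 9.54 to 10.14 in Norrin KO, and their part in these rises was not tested.

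The first steps of ceramide synthesis moved both ways, 1 up and 3 down of 13 measured. Of all genes 14.0% rose and 9.91% fell, which also holds beside the smaller groups below. Sptlc2, a catalytic subunit of serine palmitoyltransferase, rose by 0.65 (SE 0.10, limma adjusted p = 0.0002), but on the mean of all its probe sets it was at +0.30 and did not pass (adjusted p = 0.0682). Sptssa, the small subunit of the same enzyme, fell by 0.53 (SE 0.08, limma adjusted p = 0.0002). The others that fell were Cers4, a ceramide synthase (−0.63), and Kdsr, the reductase of the second step (−0.24). Among the 3 genes of ceramide phosphate and ceramide transfer, Cerk, the ceramide kinase, rose by 0.82 (SE 0.11, limma adjusted p = 7.6e-05), Cert1 fell as above, and Cptp did not pass. Of 5 ceramidases Acer2, which releases sphingosine in the Golgi, fell by 0.95 (adjusted p = 0.000962), Asah2 rose by 0.59 (adjusted p = 0.00442), and 3 did not pass.

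**Figure D4:**
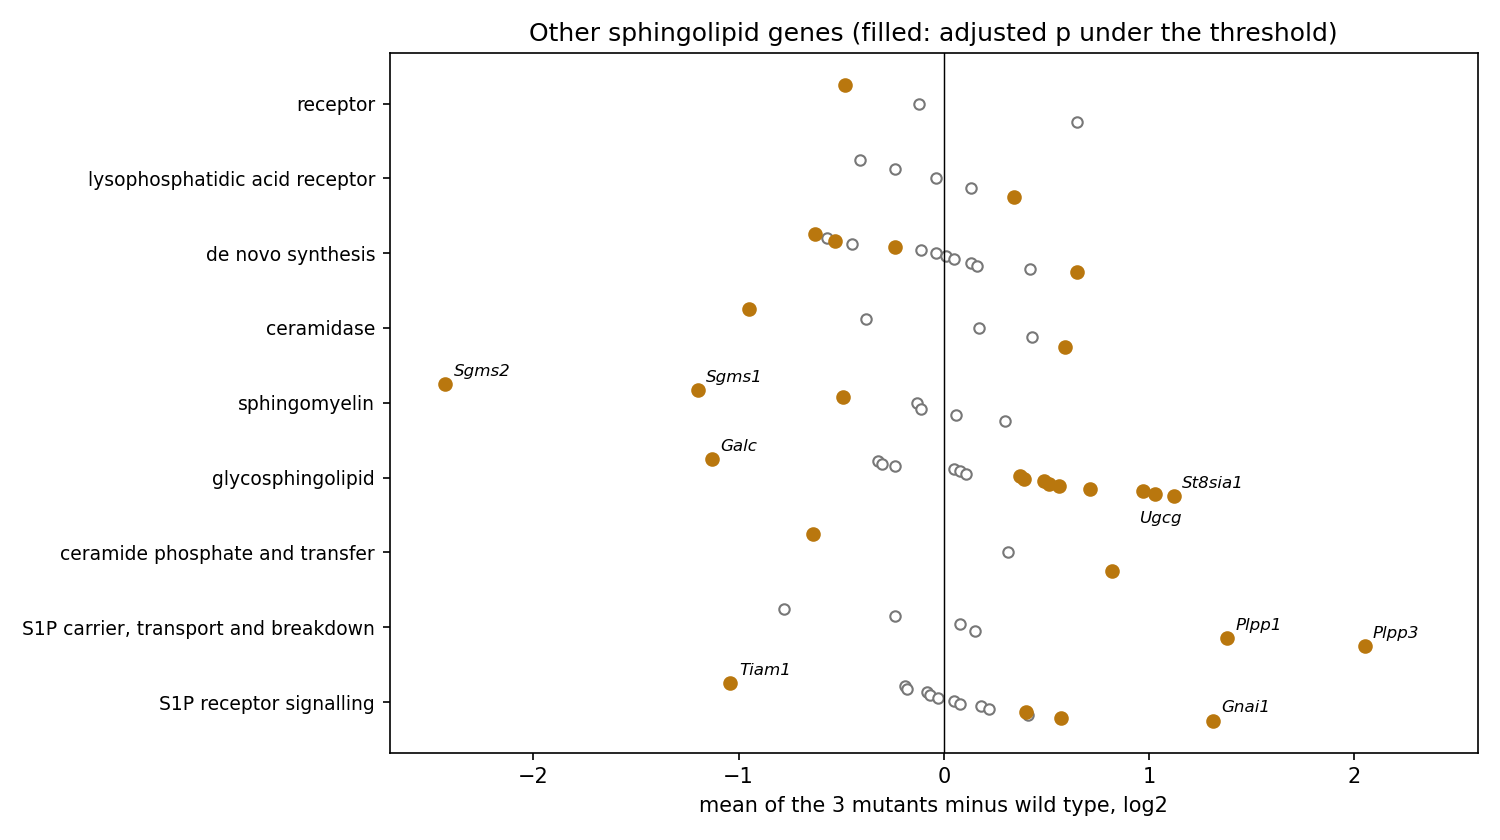
Difference between the mean of the 3 mutants and wild type (log2) for the 72 further sphingolipid genes, by role; filled points passed limma at an adjusted p of 0.05, and names mark passing genes that differ by at least 1. The synthases Sgms2 (−2.43) and Sgms1 (−1.20) lie farthest left and Plpp3 (+2.05) farthest right.

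Of the 3 S1P receptors outside the 10 genes 1 fell and 2 did not pass over the mean of the mutants. For this and the counts below, 14.0% of all genes rose and 9.91% fell. S1pr4, a receptor of lymphoid cells, fell by 0.48 (SE 0.12, limma adjusted p = 0.00683), with 7.25 to 7.69 in the mutants and 7.60 to 8.18 in wild type, and did not pass without Lrp5 KO 1, Lrp5 KO 3 and wild type 4, the arrays with the highest scores on the second principal component (adjusted p = 0.0754). S1pr2, a receptor that opposes S1pr1, was at +0.65 (SE 0.25, limma adjusted p = 0.0752), passed without those 3 arrays (0.0344) or without Lrp5 KO 3 alone (0.0482), and in Norrin KO rose by 1.29 (adjusted p = 0.0113), with wild type at 4.48 to 5.95 and Norrin KO at 6.51 to 6.93. S1pr5 was at 3.10 to 4.23 on all arrays, near the lower quartile, and did not pass (−0.12, adjusted p = 0.618). Of 5 receptors for lysophosphatidic acid, a related lipid, 1 rose (Lpar6, +0.34). Of 14 genes that act below the receptors 3 rose, Gnai1 (+1.31), Gna12 (+0.57) and Gnai3 (+0.40), which encode G protein alpha subunits, and Tiam1, an activator of Rac, fell (−1.04).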

How the data were processed

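The table used holds the deposited log2 signals of 15 probe set arrays, which the authors made by RMA, as the submitters' processing notes state. The method corrects background, quantile normalizes arrays and summarizes probes. Its version and its settings were not given in the sources used here. Of 45101 probe sets, 34958 carried 1 gene symbol in the platform annotation supplied, 932 several and 9211 none. Those with 1 symbol gave 18194 genes, each represented by its brightest probe set (by the mean of the 15 arrays), with no filter on dim genes. The 4 group means were fitted with limma 3.58.1 (lmFit, contrasts.fit, eBayes) under R 4.3.3 on all 15 arrays. P-values were adjusted by Benjamini and Hochberg over all genes of a contrast, and a gene passed at 0.05. Pools are the replicates, and p-values reflect only how pools vary; the number of arrays limits precision. The fit was tested on simulated data.

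The 10 genes, the 80 further pathway genes and the marker lists were chosen with earlier results of these data known. Of the 80, Ormdl2, Ormdl3 and Cers1 lay only on probe sets of several symbols, and 5 others were not analysed here. Genes were named by rule: all 10 members, the 5 largest rises and 5 largest falls of pathway genes that passed without overlap over the mean of the mutants (4 fell so), the other S1P receptors, and 4 genes nearest in pattern to the members farthest below and above wild type. Smaller groups of passing genes and Galc were named after their values were seen. The alternatives were 11 settings besides leaving out each array, and 1 added after the values were seen. S1pr1 was not matched among the promoter entries.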

Additional observations from a re-analysis of the deposited data

Results flagged for a closer look

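In 2 of the 18 probe sets 1 of the 6 wild-type arrays stood far from the rest by Dixon's test, and chance flags about 1 in 20 groups. For the dimmer Sphk2 probe set wild type 4 read 5.43, the lowest of its group, and for the dimmer Sgpl1 probe set wild type 3 read 5.66, the highest. By the limma test of the difference itself 3 genes were called between mutant groups, in 4 calls. The genes were chosen with the mutant signals in view, so these tests are not independent of the choice. All 4 calls hold Norrin KO, whose actin gap was 1.05 to 2.92 and whose pools all had low Xist and high Eif2s3y signals. Whether genotype or these traits account for the differences was not tested. S1pr1 was at 0.83 in Fz4 KO against Norrin KO (adjusted p = 0.0445) and −0.83 in Norrin KO against Lrp5 KO (adjusted p = 0.0175). Degs1 was at 0.55 (adjusted p = 0.0181) and Degs2 at −1.41 (adjusted p = 0.0276) in Norrin KO against Lrp5 KO. Without Norrin KO 1 none of the 4 passed, at differences of 0.67 and −0.68 for S1pr1, 0.46 for Degs1 and −0.99 for Degs2. With the actin gap as a covariate none of the 4 passed either.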

How the results depend on the processing

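The 3 genes higher and 2 lower than wild type without overlap stayed at those counts after quantile normalization again, centring, without _x_at and _s_at probe sets and without the 3 arrays that stand apart, and were 3 to 4 and 2 with each array left out. On the mean of all probe sets 2 were higher. The Sgpp1 difference in Norrin KO turned from −0.21 to 0.07 without probe sets ending in _x_at or _s_at, since another probe set then stands for the gene. Leaving out each array in turn gave 0 to 1 of the 10 genes called between Fz4 KO and Lrp5 KO, 0 to 1 between Fz4 KO and Norrin KO and 0 to 4 between Norrin KO and Lrp5 KO. It gave 5 to 10 further pathway genes lower in Lrp5 KO (main 9), with 5 without Lrp5 KO 1. With the actin gap as a covariate 1 of the 10 genes passed between Fz4 KO and Lrp5 KO (Degs2, adjusted p = 0.0409), 0 between Fz4 KO and Norrin KO (2 at an unadjusted p under 0.05 by limma) and 0 between Norrin KO and Lrp5 KO (3), and 11 pathway genes rose in Norrin KO in place of 19. With only the groups compared in the fit the last 2 counts of the 10 genes were 0 (4 unadjusted) and 1, which was Sphk2 (adjusted p = 0.0469) and none of the 3 called otherwise, with fewer arrays to estimate the spread. Each probe set on its own gave 0 between Fz4 KO and Norrin KO (3 unadjusted). Without the 3 arrays that stand apart 0 passed between Norrin KO and Lrp5 KO (4 unadjusted), and pathway genes in Lrp5 KO were 3 higher and 3 lower, with 1 Lrp5 KO array left that was assumed to vary like the other groups. The replicate numbers of the labels did not pair the arrays over all groups (deviations of like-numbered arrays correlated at −0.238 to 0.381). Fz4 KO 1 to 3 with wild type 1 to 3 were at 0.258, 0.06 and 0.381. With the replicate block pathway genes called higher were 7 in Fz4 KO, 3 in Lrp5 KO, 12 in Norrin KO and 10 over the mean, and 0 of the 10 genes passed between Fz4 KO and Norrin KO (4 unadjusted). With it S1pr4 over the mean of the mutants was at −0.47 and did not pass (adjusted p = 0.0785), and Sphk2 passed between Norrin KO and Lrp5 KO (0.0474). A block of arrays matched by their sex-linked signals (Fz4 KO 1 to 3 with wild type 1 to 3, Lrp5 KO 1 to 3 with wild type 4 to 6, no Norrin KO), chosen after seeing the data, gave 11 pathway genes lower in Fz4 KO and 13 higher in Lrp5 KO. The fit of all arrays does not use these sets, so in it Fz4 KO against Lrp5 KO also compares the sets. With the block 0 of the 10 genes passed between Fz4 KO and Lrp5 KO (2 unadjusted). Beyond each change whose construction names it, the cause was not tested.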

Other observations

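Some further genes of the pathway, chosen after their values were seen, passed in some mutants and not in others. Galc was at −3.60 (SE 0.36, limma adjusted p = 9.02e-06) in Lrp5 KO against wild type, at −0.27 (adjusted p = 0.662) in Fz4 KO and at +0.47 (adjusted p = 0.365) in Norrin KO. Gnai1, an inhibitory G protein subunit through which S1P receptors act, rose by 2.04 in Norrin KO (SE 0.33, limma adjusted p = 0.000376), where the 3 pools read 10.04 to 10.28 against 6.89 to 8.92 in wild type, and by 1.18 in Fz4 KO (adjusted p = 0.0218). It was at +0.71 in Lrp5 KO (adjusted p = 0.195). Tiam1 fell by 1.16 in Fz4 KO (adjusted p = 0.000621) and by 1.46 in Lrp5 KO (adjusted p = 0.000122), and was at −0.50 in Norrin KO (adjusted p = 0.0714). A p past the threshold in one mutant and not in another does not show that the mutants differ, and these differences are not given here.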
